A study of Homo sapiens with 9 samples.

Results

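RAB proteins are small GTPases of the RAS superfamily that direct membrane traffic. Each one sits on a particular set of vesicles or organelles, is switched on by a guanine nucleotide exchange factor (GEF), binds effectors such as tethers and motors while it carries GTP, and is switched off by a GTPase-activating protein (GAP). Paralogs that share a RAB number are close relatives that mostly act at the same membrane. The RAB genes described here are all 47 listed genes whose symbol is RAB, a number and at most 1 letter, out of 15164 listed genes. GENCODE release 44 holds 63 protein-coding symbols of this form, and the other 16 of them, RAB25, RAB4B, RAB7B, RAB38 and RAB3C among them, were not listed.

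RNA of HepG2 cells, a line from a human liver cancer, was sequenced after transfection with a scrambled siRNA (siCtrl), one that targets PTBP1 (siPTBP1) or one that targets the long noncoding RNA IGFRIL (siIGFRIL). There were 3 libraries per group, 9 in all, the genotype is given as wild type in all, and the study speaks of repeated experiments in general but not of the origin of these libraries, so p-values cover only the spread between libraries, which may be technical. Transfection time and siRNA dose are not given in the labels. PTBP1 encodes a splicing repressor that binds pyrimidine-rich RNA, and IGFRIL was described as its partner, so the 2 knockdowns ask which transcripts depend on either. PTBP1 counts were 9747, 10109 and 9520.1 under siCtrl, 10330.2, 9962 and 10537 under siIGFRIL and 2297, 2141 and 2086 under siPTBP1 (log2 fold change -2.17 with a standard error of 0.045, adjusted p = 3.3e-17), and all siPTBP1 libraries lay below the 6 others. IGFRIL was not listed under that name, so its knockdown was not checked here.

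The defining markers of the labelled cells were mostly absent. Of 18 hepatocyte genes, 3 were listed, and the 15 others, ALB, AFP, APOA1 and HNF4A among them, were not. CPS1, a urea cycle enzyme, stood at 3049 CPM (counts scaled to library size) in siCtrl, while FGG was at 0.865 CPM and TF at 0.202 CPM. COL1A1 (219 CPM), COL3A1 (356 CPM), PDGFRB (29.4 CPM) and CDH5 (14.8 CPM), which are not hepatocyte genes, were listed. Other fibroblast and endothelial genes were low, ACTA2 (1.12 CPM), VWF (0.451 CPM), CLDN5 (0.302 CPM), LUM (0.254 CPM) and PECAM1 (0.246 CPM). COL1A2, DCN and KDR were not listed. No source says whether rows were left out of the table. The summed hepatocyte list, nearly all of it CPS1, was 2872 to 3162 CPM in siCtrl, 2638 to 3005 CPM in siIGFRIL and 1644 to 1702 CPM in siPTBP1. The summed endothelial list (4 of 5 genes listed) was 14.9 to 16.5 CPM in siCtrl, 11.1 to 12.4 CPM in siIGFRIL and 3.37 to 4.48 CPM in siPTBP1. In siPTBP1 CPS1 was lower (log2 fold change -0.75) while TF (1.27) and FGG (1.69) were higher, and of the endothelial genes CDH5 (-2.22), most of that sum, and VWF (-1.63) were lower while PECAM1 (0.15) and CLDN5 (0.66) were not called. The fibroblast list (5 of 7 genes listed) was 591 to 627 CPM, 596 to 624 CPM and 615 to 628 CPM in the same order. Most of that sum is COL1A1 and COL3A1. By gene, 1 of the 5 was called lower in siPTBP1 and 4 were not called. Their log2 fold changes ran from -0.92 to 0.26, with a median of -0.37. Of 6 leukocyte genes 1 was listed, CD68, at 3.66 to 4.33 CPM, 4.35 to 4.73 CPM and 4.92 to 5.58 CPM. Their part in the RAB results was not tested. In bulk RNA, fewer cells of a type and less RNA per cell cannot be told apart. Total counts were 23426852 to 27942813 per library.

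The results compare paralogs of similar coding sequence, so the coding bases around the P-loop, the glycine-rich turn that holds the phosphates of GTP, are shown for 4 families. They were read from the canonical transcripts of GENCODE release 44 (GRCh38), run 5′ to 3′ over 60 bases, and capitals mark the bases at which the paralogs shown differ.
RAB5A: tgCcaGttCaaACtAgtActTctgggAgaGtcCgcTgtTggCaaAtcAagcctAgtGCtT
RAB5B: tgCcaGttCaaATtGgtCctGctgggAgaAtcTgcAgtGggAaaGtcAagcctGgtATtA
RAB5C: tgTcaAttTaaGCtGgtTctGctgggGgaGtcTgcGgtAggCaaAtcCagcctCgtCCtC
RAB11A: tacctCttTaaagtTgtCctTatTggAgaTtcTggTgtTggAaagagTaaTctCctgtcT
RAB11B: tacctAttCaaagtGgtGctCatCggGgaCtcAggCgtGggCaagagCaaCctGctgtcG
RAB1A: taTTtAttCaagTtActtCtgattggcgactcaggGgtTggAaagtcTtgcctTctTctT
RAB1B: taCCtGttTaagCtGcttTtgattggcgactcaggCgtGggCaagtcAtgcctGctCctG
RAB3A: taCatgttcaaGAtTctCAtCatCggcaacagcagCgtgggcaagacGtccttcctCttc
RAB3D: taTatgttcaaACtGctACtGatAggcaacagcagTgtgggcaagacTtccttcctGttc
The 3 RAB5 stretches differed at 20 of 60 bases, RAB11A and RAB11B at 16, RAB1A and RAB1B at 14, and RAB3A and RAB3D at 11. Codons for the P-loop pattern, a glycine, any 4 residues, a glycine, a lysine and a serine or threonine, were found in 45 of the 47 genes, all except RAB40B and RAB40C. Over whole coding sequences, the 13 paralog pairs were 66.7% to 78.9% identical, and the longest run of bases that a pair shared exactly was 14 to 55 bases. Some paralogs differed widely in base composition at the third position of the codon and others little. In RAB11A 35.6% of bases at the third codon position were G or C and in RAB11B 88.1%, in RAB1A 41.5% and in RAB1B 76.1%, and in RAB5A 30.2% and in RAB5C 65.7%. The values were closer for RAB3A (81.4%) and RAB3D (77.2%), for RAB27A (45.2%) and RAB27B (41.3%) and for RAB40B (85.2%) and RAB40C (92.2%).

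Upon PTBP1 knockdown the RAB genes moved apart in both directions while their median stayed near 0. Of the 47, 15 were higher and 16 were lower than in siCtrl, where 32.2% of all listed genes were higher and 33.8% lower, so the share of RAB genes called was close to that of all genes. A gene was called at an adjusted p under 0.05 (limma across all 15164 genes, Benjamini-Hochberg) and a fold change over 1.2. The median log2 fold change was 0.04 over the RAB genes and 0.00 over all genes. Trends on transcript length and GC content touched many of these calls, and with them removed 14 of the 31 kept call and direction and 17 did not. Of all matched genes 24.5% were then higher and 26.4% lower, and how many kept their call was not counted. Without scaling between libraries 9 were higher and 21 lower, where 23.5% of all genes were higher and 43.1% lower. The median of all genes then moved to -0.22. The siPTBP1 libraries lay wholly above the siCtrl libraries for 19 RAB genes, wholly below for 18 and overlapped for 10. The share of all genes so separated was not counted. RAB28, RAB6A, RAB7A and RAB11A passed the adjusted p with a fold change under 1.2, at log2 fold changes of 0.23, -0.14, 0.15 and 0.17. The other 12 that were not called had an adjusted p of 0.05 or more. For 11 RAB genes over 10% of exon bases are shared with another gene, and without them 10 were higher and 13 lower. All counts given per library are scaled by TMM, which matches libraries on the bulk of their genes, and fold changes are of log2(count + 1).

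**Figure D1:**
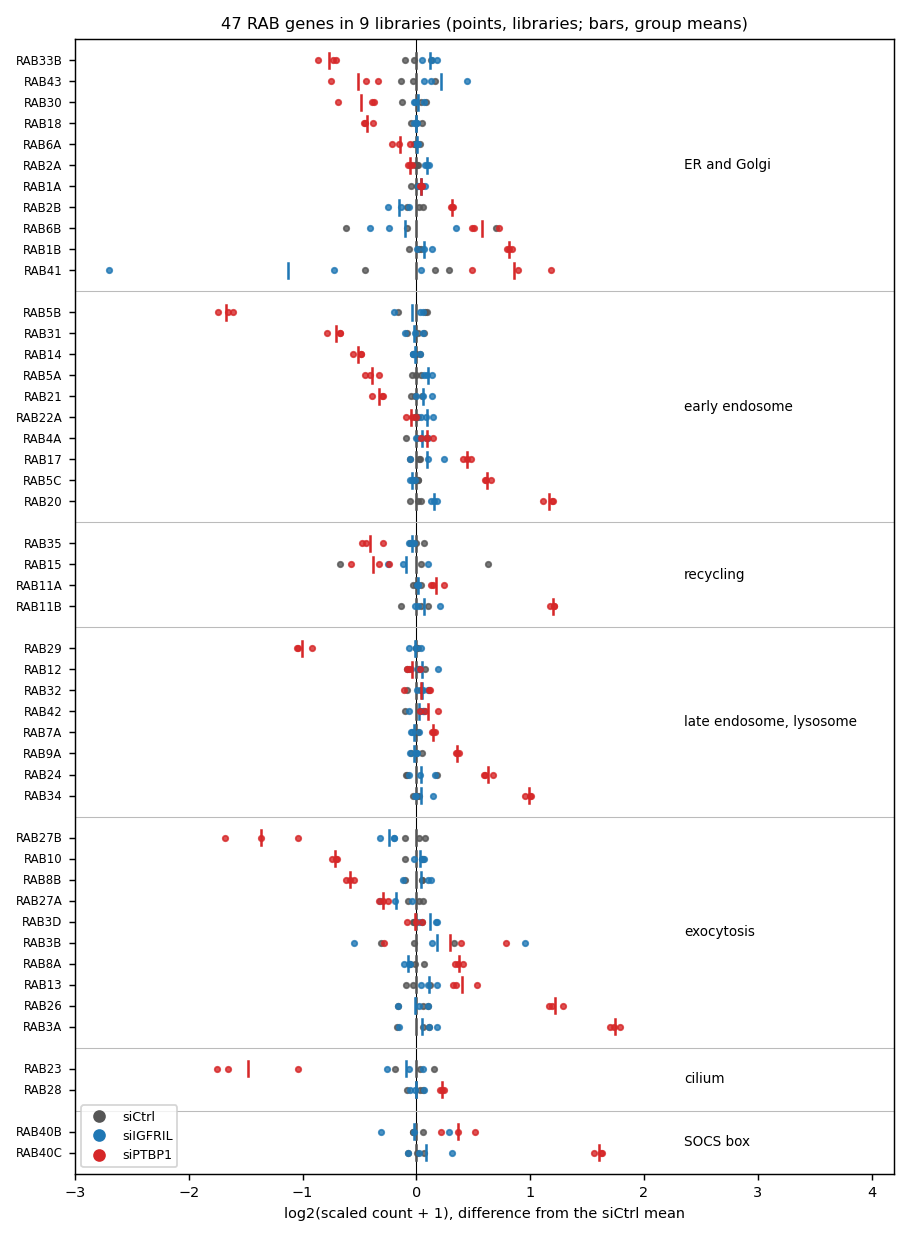
Each point is 1 library, plotted as the difference of log2(scaled count + 1) from the siCtrl mean of that gene, for the 47 RAB genes grouped by the membrane or process each is best known for; short bars are means of 3 libraries. The siPTBP1 means run from RAB5B at -1.67 to RAB3A at 1.74, while siIGFRIL libraries lie around 0 except in genes of very low count such as RAB41.

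The level of a gene is given per kb of its canonical transcript, as CPM per kb. RAB7A, which drives fusion of late endosomes with lysosomes, was the highest in siCtrl at 155 ± 0.649 CPM per kb (SD, n = 3). It was followed by RAB5C at 122 ± 1.75, RAB1B at 90.1 ± 3.55, RAB34 at 82.3 ± 1.79 and RAB11B at 81.2 ± 6.81 CPM per kb. RAB7A, RAB5C and RAB1B were each apart from their neighbours by more than their spread, whereas RAB34, RAB11B and RAB13 (80.4 ± 6.71 CPM per kb) were not. The lowest levels were those of RAB3B (0.0244 ± 0.00603), RAB6B (0.154 ± 0.0754), RAB27B (0.162 ± 0.00905), RAB41 (0.211 ± 0.0621) and RAB15 (0.436 ± 0.193 CPM per kb), of which RAB6B, RAB27B and RAB41 overlapped within their spread, as did RAB41 and RAB15. In siPTBP1 the order at the top changed, with RAB5C at 174 ± 3.72, RAB11B at 172 ± 1.82 and RAB7A at 159 ± 1.08 CPM per kb. With trends on length and GC content removed, the changes of RAB5C (-0.03) and RAB11B (0.23) were not called. The 47 genes together made 3391 ± 33.9 CPM in siCtrl, 3417 ± 35.5 CPM in siIGFRIL and 3653 ± 23.4 CPM in siPTBP1. All these levels keep the trends and are scaled to library size only, not by TMM.

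The 3 RAB5 paralogs, which control the fusion of early endosomes, responded differently to siPTBP1, with falls of RAB5A and RAB5B and a rise of RAB5C. Positions are those of GENCODE release 44 on GRCh38. RAB5B (chromosome 12, 55973913 to 55996683, plus strand) had counts of 1287, 1272 and 1079 under siCtrl, 1255, 1053 and 1237 under siIGFRIL and 359.9, 383 and 394 under siPTBP1. This was the largest fall among the RAB genes (log2 fold change -1.67 with a standard error of 0.080, adjusted p = 8e-13 in limma), and all 3 siPTBP1 libraries lay below the 6 others. RAB5A (chromosome 3, 19947097 to 19985175, plus strand) stood at 2034, 1982 and 1932 under siCtrl, 2111, 2079 and 2184 under siIGFRIL and 1453, 1493 and 1581 under siPTBP1. It fell less, again without overlap between siPTBP1 and siCtrl (log2 fold change -0.39 with a standard error of 0.050, adjusted p = 7.4e-07). RAB5C (chromosome 17, 42124978 to 42155044, minus strand) had counts of 4907, 5019 and 5031 under siCtrl, 4852, 4946 and 4781 under siIGFRIL and 7569, 7829.7 and 7628 under siPTBP1. It rose in all 3 siPTBP1 libraries (log2 fold change 0.62 with a standard error of 0.039, adjusted p = 2.7e-11), but stood at -0.03 with trends on length and GC content removed. For RAB5C 30.4% of its exon bases are shared with other genes and no source names the strand setting of the counts. The share of RAB5C in the summed RAB5 level per kb was 74.9% ± 0.977 in siCtrl (SD, n = 3), 73.5% ± 1.04 in siIGFRIL and 87.5% ± 0.503 in siPTBP1, and that of RAB5B went from 5.67% ± 0.525 in siCtrl to 1.34% ± 0.0501 in siPTBP1.

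RAB11A and RAB11B mark the recycling endosome and bring receptors back to the cell surface. RAB11B (chromosome 19, 8389981 to 8404434, plus strand) had counts of 2917, 3288 and 3436 under siCtrl, 3179, 3696 and 3242 under siIGFRIL and 7414, 7255 and 7419 under siPTBP1. All siPTBP1 libraries lay above all others (log2 fold change 1.199 with a standard error of 0.061, adjusted p = 4.1e-12, and 0.23 and no longer called with trends on length and GC content removed). RAB11A counts were 2180.2, 2139 and 2251 under siCtrl, 2201, 2213 and 2214 under siIGFRIL and 2428, 2393 and 2586 under siPTBP1, a change under the fold limit (0.17, standard error 0.047). With the trends removed RAB11A stood at 0.87 and was called higher. RAB1A and RAB1B carry cargo from the endoplasmic reticulum to the Golgi and had nearly equal counts in siCtrl. RAB1B had 4069, 4339 and 4379.6 under siCtrl, 4465, 4679 and 4279 under siIGFRIL and 7465, 7616 and 7419 under siPTBP1, a rise without overlap (log2 fold change 0.82 with a standard error of 0.045, adjusted p = 4.2e-12, but 0.08 and not called with the trends removed, with 43.8% of exon bases shared with other genes). RAB1A, with 4098, 4249.9 and 4379.6 under siCtrl, 4283, 4336 and 4460.3 under siIGFRIL and 4377, 4343 and 4350.3 under siPTBP1, overlapped between groups (0.04, standard error 0.042, 22.9% shared).

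**Figure D2:**
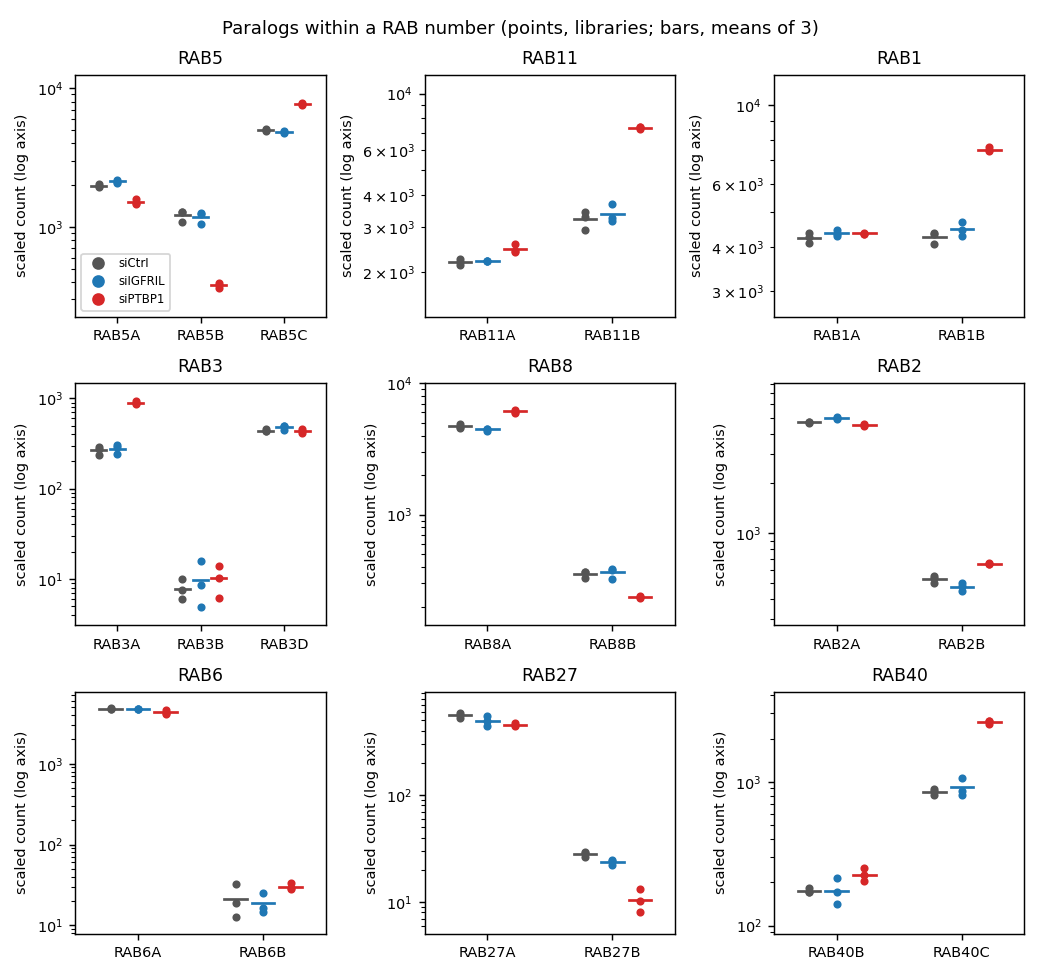
Scaled counts (log axis) of the paralogs of 9 RAB numbers in siCtrl, siIGFRIL and siPTBP1, 1 point per library with a bar at the mean of 3. RAB5C, RAB11B, RAB1B, RAB3A and RAB40C sit higher in siPTBP1 than in the other groups, and RAB5B sits lower.

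The RAB3 proteins act on secretory vesicles, RAB3A foremost at synapses. RAB3A (chromosome 19, 18196784 to 18204042, minus strand) had counts of 236, 278 and 288 under siCtrl, 288, 302 and 240.1 under siIGFRIL and 869.6, 925 and 889 under siPTBP1. No RAB gene rose more, and its siPTBP1 libraries lay far above all others (log2 fold change 1.74 with a standard error of 0.095, adjusted p = 4e-12). RAB3D overlapped between groups, at 454, 434 and 432 under siCtrl, 446, 498 and 495 under siIGFRIL and 456, 416 and 438 under siPTBP1 (-0.01, standard error 0.076), with 25.1% of its exon bases shared. RAB3B was close to the floor of the table, with 5.93, 9.83 and 7.5 under siCtrl, 15.6, 4.88 and 8.46 under siIGFRIL and 13.8, 6.08 and 10.3 under siPTBP1, and was not called (0.30, standard error 0.46), though it was called higher with the trends removed (1.33). RAB3A thus took 63.0% ± 3.12 of the RAB3 level per kb in siCtrl and 85.2% ± 0.995 in siPTBP1.

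RAB8A and RAB8B serve exocytosis and the cilium and moved in opposite directions, but with trends on length and GC content removed both were above 0 (0.21 and 0.11) and neither was called. RAB8A had 4547, 4683 and 4927 under siCtrl, 4373, 4519.7 and 4523 under siIGFRIL and 6277, 5975 and 6068 under siPTBP1 (log2 fold change 0.37 with a standard error of 0.043, adjusted p = 1.8e-07, 43.9% of exon bases shared). RAB8B had 366, 367 and 331 under siCtrl, 380.3, 326 and 388 under siIGFRIL and 231, 242 and 236 under siPTBP1 (log2 fold change -0.59 with a standard error of 0.091, adjusted p = 8.8e-06). In both genes the siPTBP1 and siCtrl libraries did not overlap. RAB27A and RAB27B dock secretory lysosomes and exosome-forming compartments at the plasma membrane, and both fell, although with the trends removed neither was called (0.09 for RAB27A and -0.43 for RAB27B). RAB27B had 28.7, 29.7 and 26.3 under siCtrl, 22.4, 24.5 and 24.4 under siIGFRIL and 8.08, 13.2 and 10.3 under siPTBP1 (log2 fold change -1.37 with a standard error of 0.28, adjusted p = 0.00023). RAB27A went from 529, 581 and 566 under siCtrl to 456, 443 and 469 under siPTBP1, with 488, 545 and 446 under siIGFRIL (log2 fold change -0.29 with a standard error of 0.080, adjusted p = 0.0028). Its siIGFRIL libraries reached down into the siPTBP1 range.

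RAB40B and RAB40C carry a SOCS box, which recruits a cullin ubiquitin ligase, and both rose. RAB40C (chromosome 16, 589357 to 629272, plus strand) had 861, 899 and 812 under siCtrl, 869, 1061 and 816 under siIGFRIL and 2531, 2655 and 2641 under siPTBP1, with all siPTBP1 libraries far above all others (log2 fold change 1.61 with a standard error of 0.077, adjusted p = 1.4e-12). RAB40B had 172, 182 and 171 under siCtrl, 141, 213 and 172 under siIGFRIL and 251, 226 and 204 under siPTBP1 (log2 fold change 0.37 with a standard error of 0.13, adjusted p = 0.018). All 3 siPTBP1 libraries lay above siCtrl, but the call was lost without siPTBP1 replicate 1 (0.29, adjusted p = 0.088 in limma), with total count scaling (0.26, adjusted p = 0.088 in limma) and with no scaling (0.14, adjusted p = 0.37 in limma). RAB2A and RAB2B act between the endoplasmic reticulum and the Golgi, and RAB2B rose from 497, 534 and 547 under siCtrl to 659, 654 and 650.2 under siPTBP1, with 443, 477 and 502 under siIGFRIL (log2 fold change 0.32 with a standard error of 0.071, adjusted p = 0.00056). RAB2A, at 4642, 4716 and 4694 under siCtrl, 4920.0, 5049.9 and 4984 under siIGFRIL and 4438, 4497 and 4567 under siPTBP1, was not called (-0.06, standard error 0.039). RAB6A, which runs traffic back through the Golgi, had 4739.9, 4882 and 4694 under siCtrl, 4785, 4744 and 4814 under siIGFRIL and 4112, 4284 and 4598 under siPTBP1. RAB6B, its neuronal relative, had 18.7, 12.6 and 32.8 under siCtrl, 16.6, 14.7 and 25.5 under siIGFRIL and 33.5, 28.3 and 28.7 under siPTBP1 and was not called (0.58, standard error 0.33), but was at 0.92 with an adjusted p of 0.018 from limma without siCtrl replicate 3.

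The ratio of 2 paralogs within a library tests whether their responses differ. It was fitted with limma for all 1134 pairs of listed genes whose symbols differ only in a final letter. Of the 13 RAB pairs, 11 changed ratio in siPTBP1, where 67.1% of all such pairs did. Pairs within RAB5 and within RAB3 share genes, so the 13 are not independent. With trends on length and GC content removed 7 of the 13 passed, and RAB11A/RAB11B (0.64, called), RAB1A/RAB1B (0.04) and RAB3A/RAB3B (-0.46) had the opposite sign. The siPTBP1 ratios did not overlap the siCtrl ratios in any of the 11, though an exact permutation test of 3 against 3 cannot go below p = 0.10. These 11 had already passed on the same ratios, and the share of all letter pairs so separated was not counted. The pairs that did not pass were RAB3B/RAB3D and RAB6A/RAB6B. The log2 ratio of RAB5B to RAB5C was -1.93, -1.98 and -2.22 in siCtrl and -4.39, -4.35 and -4.27 in siPTBP1, the largest change of a RAB pair (-2.29 on the log2 scale with a standard error of 0.090, adjusted p = 6e-20). RAB3A to RAB3D went from -0.94, -0.64 and -0.58 in siCtrl to 0.93, 1.15 and 1.02 in siPTBP1 and so changed sign (1.75 on the log2 scale with a standard error of 0.11, adjusted p = 1.8e-14). These ratios are of counts not corrected for length. Per kb RAB3A was already above RAB3D in siCtrl, at 7.19 against 4.17 CPM per kb. RAB1A to RAB1B went from 0.01, -0.03 and 0.00 to -0.77, -0.81 and -0.77 (-0.78 on the log2 scale with a standard error of 0.051, adjusted p = 1.6e-14). The other changes were 1.28 for RAB5A/RAB5B, -1.02 for RAB5A/RAB5C, -1.03 for RAB11A/RAB11B, -1.24 for RAB40B/RAB40C, 0.96 for RAB8A/RAB8B, 1.07 for RAB27A/RAB27B, -0.37 for RAB2A/RAB2B and 1.44 for RAB3A/RAB3B. The last was 1.13 with an adjusted p of 0.068 from limma without siPTBP1 replicate 2, and RAB6A/RAB6B passed, at -1.08, without siCtrl replicate 3. In siIGFRIL no RAB pair passed in limma, where 0.441% of all pairs did. At an unadjusted p under 0.05 there were 2 RAB pairs, RAB2A/RAB2B at 0.24 and RAB5A/RAB5C at 0.14, and 109 of all pairs.

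**Figure D3:**
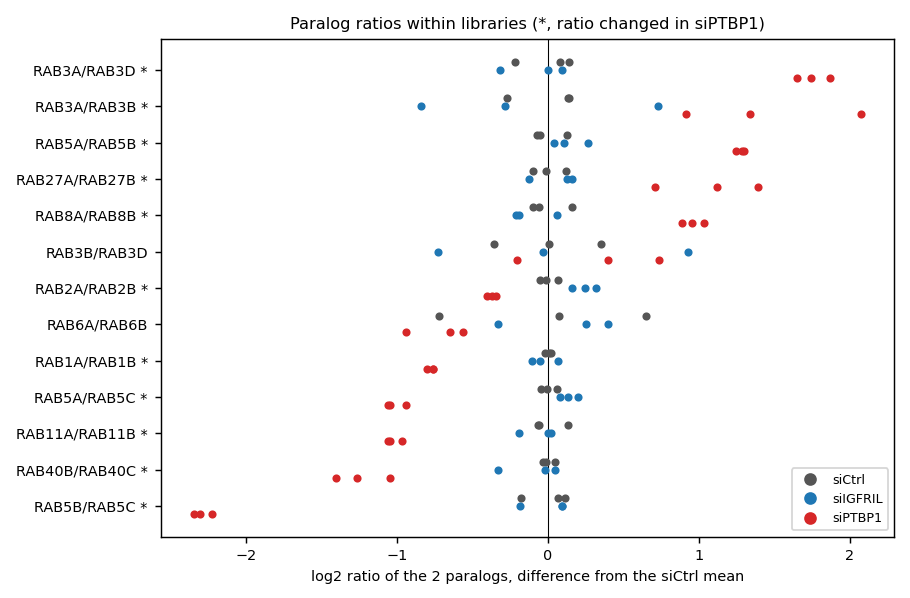
The log2 ratio of 2 paralogs in each library is plotted as its difference from the siCtrl mean for the 13 RAB pairs, with an asterisk where the ratio changed in siPTBP1. The siPTBP1 ratios run from -2.29 on average for RAB5B/RAB5C to 1.75 for RAB3A/RAB3D.

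The summed counts of the paralogs of each number are given as a description, with no test. The RAB5 sum was 8181 ± 122 in siCtrl and 9564 ± 165 in siPTBP1 (SD, n = 3), 117% of siCtrl. RAB1 reached 139%, RAB11 182%, RAB3 187% and RAB40 275% of siCtrl, RAB8 125%, RAB2 98.9%, RAB6 91.0% and RAB27 79.5%. These sums keep the trends on length and GC content. With the trends removed RAB1B (0.08), RAB11B (0.23), RAB8A (0.21) and RAB5C (-0.03) were not called, while RAB3A (0.87) and RAB40C (0.95) stayed higher. In siIGFRIL the 9 sums were between 88.1% for RAB27 and 107% for RAB3.

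The counts by membrane are small and are read against all genes, of which 32.2% were higher and 33.8% lower, or 24.5% and 26.4% with trends on length and GC content removed. Of 11 listed RABs of the endoplasmic reticulum and Golgi, RAB1, RAB2 and RAB6 included, 2 rose, 4 fell and 5 were not called, with a median log2 fold change of -0.06. With the trends removed 4 were higher, RAB2A, RAB2B, RAB6B and RAB30, and 1 was lower, RAB43. RAB33B, a Golgi RAB that binds the autophagy protein ATG16L1, had 335, 286 and 303 under siCtrl, 338, 349 and 317 under siIGFRIL and 168, 188 and 185 under siPTBP1 (log2 fold change -0.77 with a standard error of 0.095, adjusted p = 4.9e-07, and -0.17 and not called with the trends removed). RAB43, also of the Golgi, had 82.9, 67.4 and 72.4 under siCtrl, 101, 80.7 and 77.5 under siIGFRIL and 54.0, 43.5 and 58.5 under siPTBP1 (log2 fold change -0.51 with a standard error of 0.18, adjusted p = 0.014). It shares 79.3% of its exon bases with the read-through gene ISY1-RAB43, and its call was lost without siCtrl replicate 1 (adjusted p = 0.065, limma) and without siPTBP1 replicate 2 (adjusted p = 0.069, limma). RAB30 and RAB18, the latter found on lipid droplets, fell as well, with log2 fold changes of -0.48 and -0.43, but with trends on length and GC content removed both were above 0 and RAB30 was called higher. RAB41 was near the floor, with 6.91, 6.28 and 3.74 under siCtrl, 2.93, 0.00 and 5.66 under siIGFRIL and 8.08, 11.1 and 13.8 under siPTBP1, and was not called (0.86, standard error 0.61), and 49.3% of its exon bases are shared.

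Of 10 listed early endosome RABs, RAB5 included, 3 rose and 5 fell, where 32.2% of all genes rose and 33.8% fell. The other 2 were not called, and the median log2 fold change of the 10 was -0.19. With the trends removed 4 were higher, RAB4A, RAB20, RAB21 and RAB22A, and 3 lower, RAB5A, RAB5B and RAB17, where 24.5% and 26.4% of all genes were. RAB20, a RAB of endosome and phagosome maturation, had 445, 475 and 466 under siCtrl, 513, 523 and 505 under siIGFRIL and 999, 1063 and 1057 under siPTBP1 (log2 fold change 1.17 with a standard error of 0.065, adjusted p = 4.6e-12). It was above siCtrl in every library of both knockdowns, though only the siPTBP1 rise was called. RAB17, found in polarised epithelia, rose from 2195, 2066 and 2189 under siCtrl to 2848, 2925 and 2992 under siPTBP1 (log2 fold change 0.44 with a standard error of 0.061, adjusted p = 2.1e-06), but was called lower with the trends removed. Its siIGFRIL libraries, at 2311, 2542 and 2066, overlapped siCtrl. RAB31, which sorts cargo between the Golgi and endosomes, fell from 2522, 2616 and 2363 under siCtrl to 1568, 1452 and 1569.6 under siPTBP1, with 2477, 2323 and 2597 under siIGFRIL (log2 fold change -0.71 with a standard error of 0.056, adjusted p = 7.3e-10, and -0.25 and not called with the trends removed). RAB14, of the same route, fell from 3084, 3026 and 2970.4 under siCtrl to 2158, 2156 and 2057 under siPTBP1, with 2966, 3087 and 2963 under siIGFRIL (log2 fold change -0.51 with a standard error of 0.045, adjusted p = 3.6e-09, and 0.04 and not called with the trends removed). RAB21, a RAB of integrin uptake, fell with a log2 fold change of -0.33, but was called higher with the trends removed. RAB4A, of fast recycling, and RAB22A were not called. Among the 4 recycling RABs, RAB11B rose, RAB35 fell with a log2 fold change of -0.40 (14.8% of exon bases shared), and RAB15, with 54.4, 35.95 and 21.5 under siCtrl, 29.2, 37.4 and 32.0 under siIGFRIL and 23.0, 29.4 and 27.4 under siPTBP1, was not called at -0.38 but reached -0.72 with an adjusted p of 0.023 from limma without siCtrl replicate 3. With the trends removed 1 recycling RAB was higher, RAB11A (0.87), and 1 lower, RAB35 (-0.68), while RAB11B (0.23) was not called.

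Of 8 listed late endosome and lysosome RABs, 3 rose and 1 fell, where 32.2% of all genes rose and 33.8% fell. The other 4 were not called, and the median log2 fold change of the 8 was 0.12. With the trends removed the counts turned to 1 higher, RAB9A, and 3 lower, RAB29, RAB32 and RAB42, where 24.5% and 26.4% of all genes were. RAB34, which positions lysosomes and takes part in building cilia, had 3494, 3574 and 3632 under siCtrl, 3527, 3934 and 3548 under siIGFRIL and 7161, 6911 and 7117 under siPTBP1 (log2 fold change 0.99 with a standard error of 0.047, adjusted p = 6.1e-13, and 0.18 and not called with the trends removed). RAB29, known for recruiting the kinase LRRK2 to membranes, had 1438, 1421 and 1424 under siCtrl, 1422, 1362 and 1471 under siIGFRIL and 692, 756 and 687 under siPTBP1 (log2 fold change -1.005 with a standard error of 0.058, adjusted p = 7.8e-12). The siPTBP1 libraries lay above all others for RAB34 and below all others for RAB29. RAB24, linked to autophagy, rose from 873, 874 and 1049.6 under siCtrl to 1484, 1412 and 1405 under siPTBP1, with 887, 1039 and 950.0 under siIGFRIL (log2 fold change 0.63 with a standard error of 0.074, adjusted p = 2.8e-07, and -0.15 and not called with the trends removed), and 44.8% of its exon bases are shared with other genes. RAB9A, which returns mannose 6-phosphate receptors to the Golgi, rose with a log2 fold change of 0.36. RAB7A had 8369, 8501 and 8403 under siCtrl, 8218, 8147 and 8558 under siIGFRIL and 9449, 9311 and 9262 under siPTBP1, slightly but wholly above siCtrl. RAB12, RAB32 and RAB42 overlapped between groups.

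Of 10 listed exocytosis RABs, RAB3, RAB8 and RAB27 included, 4 rose, 4 fell and 2 were not called, with a median log2 fold change of 0.14, where 32.2% of all genes rose and 33.8% fell. With the trends removed 3 were higher, RAB3A, RAB3B and RAB26, and 1 lower, RAB10. RAB26, a RAB of secretory granules, had 522, 449 and 539 under siCtrl, 509, 537 and 449 under siIGFRIL and 1230.3, 1123 and 1149 under siPTBP1 (log2 fold change 1.22 with a standard error of 0.082, adjusted p = 7.1e-11). RAB10, which delivers the glucose transporter GLUT4 to the surface, had 5716, 5686 and 5137 under siCtrl, 5691, 5412 and 5765 under siIGFRIL and 3363, 3291 and 3389 under siPTBP1 (log2 fold change -0.72 with a standard error of 0.047, adjusted p = 5.1e-11). In both the siPTBP1 libraries were clear of all others. RAB13, of tight junctions, rose with a log2 fold change of 0.40 and stood at -0.25, not called, with the trends removed (24.8% of exon bases shared). Of the cilium RABs, RAB23, a negative regulator of Hedgehog signaling, fell from 401, 437 and 343 under siCtrl to 116, 124 and 189.8 under siPTBP1, with 326, 374 and 407 under siIGFRIL (log2 fold change -1.48 with a standard error of 0.16, adjusted p = 1.2e-06). The siPTBP1 counts of replicate 3 lay above the other siPTBP1 counts but below all siCtrl counts, and 57.8% of its exon bases are shared with BAG2.

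The change in siPTBP1 ran with the length and base composition of the transcripts. RAB genes that rose had a median canonical transcript of 1674 bases and a median GC content of 58.6%, those that fell 4363 bases and 39.1%, and those not called 3156.5 bases and 45.0%. Across the 47 genes Spearman's rho between log2 fold change and transcript length was -0.66, and with GC content 0.65. Over 13873 listed genes with a matched transcript these were -0.55 and 0.48, as a description across genes of the same 9 libraries. When all matched genes were cut into 4 equal classes by transcript length, 9 of 12 RAB genes in the shortest class rose and none fell, where 63.1% of all genes of that class rose and 7.75% fell. Of 12 in the next class 5 rose and 2 fell, where 40.2% and 19.3% of all genes did. Of 16 in the class after it 1 rose, RAB40B, and 10 fell, where 19.2% and 45.9% of all genes did. Of 7 in the longest class none rose and 4 fell, where 8.54% and 67.8% of all genes did. In all 11 pairs with a changed ratio the paralog with the shorter transcript had the higher change, and so it was in 73.0% of all letter pairs with a changed ratio. Some of the 11 share a gene, within RAB5 and within RAB3, and are not independent. RAB5C (1640 bases, 56.2% GC) rose beside RAB5B (5273 bases, 46.1% GC) and RAB5A (2518 bases, 41.9% GC). RAB11B (1590 bases, 63.1% GC) rose beside RAB11A (4895 bases, 37.0% GC). The run CTCTCT, searched on the sense strand of the canonical transcript with overlapping matches counted, occurred in 8 of 15 genes that rose, 10 of 16 that fell and 10 of 16 not called, and in 60.3% of all matched transcripts. RAB5B held the most, 14.

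**Figure D4:**
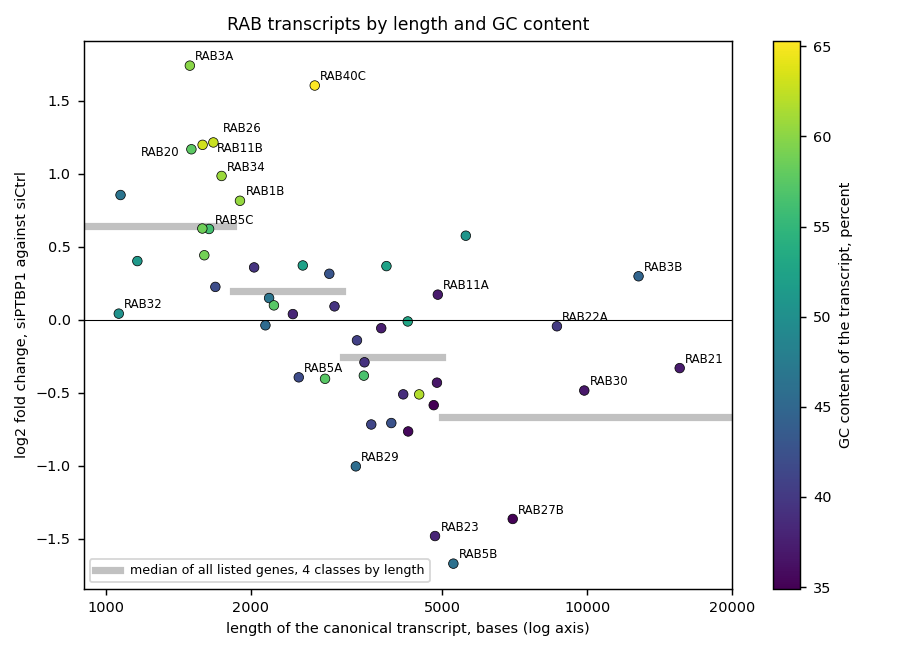
Log2 fold change in siPTBP1 against the length of the canonical transcript (log axis) for the 47 RAB genes, coloured by GC content, with grey bars at the median of all listed genes in 4 equal classes by length (the outer bars are trimmed to the axis). Short, GC-rich transcripts such as RAB3A lie high and long, GC-poor ones low, with RAB21 (15558 bases, -0.33) above the median of its class.

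When per-library trends on transcript length and GC content were removed and the fit repeated over 13873 genes, 15 RAB genes were higher and 10 lower, where 24.5% and 26.4% of all genes were. The calls of 14 genes stood in the same direction. How many calls stood over all genes was not counted. Higher in both were RAB3A (0.87 with the trends removed), RAB40C (0.95), RAB40B (0.56), RAB2B (0.50), RAB20 (0.41), RAB26 (0.30) and RAB9A (0.28). Lower in both were RAB5B (-1.04), RAB23 (-0.81), RAB29 (-0.76), RAB35 (-0.68), RAB43 (-0.57), RAB10 (-0.33) and RAB5A (-0.32). Another 7 kept their sign but not the call, RAB11B (0.23), RAB34 (0.18), RAB1B (0.08), RAB8A (0.21), RAB31 (-0.25), RAB33B (-0.17) and RAB27B (-0.43). The remaining 10 changed sign, of which RAB17 (-0.34) was then called lower and RAB21 (0.84) and RAB30 (0.57) higher. The others were RAB5C (-0.03), RAB14 (0.04), RAB18 (0.26), RAB8B (0.11), RAB13 (-0.25), RAB27A (0.09) and RAB24 (-0.15). Of genes not called before, 6 became higher, RAB3B, RAB6B, RAB22A, RAB11A, RAB2A and RAB4A, and 2 became lower, RAB32 and RAB42. Pair ratios passed in 7 of 13 RAB pairs and in 58.1% of all pairs. RAB5B/RAB5C stayed lowest at -1.01. RAB8A/RAB8B (0.10), RAB2A/RAB2B (-0.09) and RAB27A/RAB27B (0.52) kept their sign but did not pass, and RAB6A/RAB6B (-0.92) passed. Whether these trends arose in the cells or in the libraries was not tested.

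In siIGFRIL no RAB gene passed, higher or lower, in limma, where 0.277% of all genes were higher and 0.191% lower. Before adjustment, 4 RAB genes had a p under 0.05, of which 2 lay higher and 2 lower, among 1502 of all genes (9.91%), and the smallest adjusted p of a RAB gene was 0.42. These 4 were RAB20 (log2 fold change 0.15, 95% interval 0.02 to 0.29), RAB27A (-0.18, -0.35 to -0.02), RAB2A (0.09, 0.01 to 0.17) and RAB2B (-0.15, -0.30 to -0.00098). The siIGFRIL libraries lay wholly above siCtrl for RAB5A, RAB20, RAB22A and RAB2A, wholly below for RAB8A and RAB27B, and overlapped for the other 41. Full separation of 3 against 3 libraries has an exact permutation p of only 0.10, and the share of all genes so separated was not counted. For 34 of the 47 genes the whole 95% interval lay within a fold change of 1.2 in either direction. How many of all genes met this was not counted. Among the 13 RAB genes whose intervals reached further, RAB41 (-1.13, -2.42 to 0.16), RAB3B (-0.78 to 1.14) and RAB6B (-0.79 to 0.58) were under 1 CPM in siCtrl. The median over the RAB genes was 0.02 and over all genes 0.00.

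The comparisons with siCtrl share its libraries, so the 2 knockdowns were also compared with each other in the same fit. In siPTBP1 against siIGFRIL, 16 RAB genes were higher and 15 lower, where 31.5% and 33.1% of all genes were. RAB3A differed by 1.70 (standard error 0.095, adjusted p = 6.8e-12, limma), RAB40C by 1.52 and RAB5B by -1.63 (standard error 0.080, adjusted p = 1.3e-12, limma). RAB41 had the largest difference, 1.98 (adjusted p = 0.0072, limma), but its highest count in any library was 13.8 and siIGFRIL replicate 2 was at 0.

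The proteins that load, prenylate and switch RABs were counted from 4 lists, and their counts in siPTBP1 are read against the 32.2% of all genes that were higher and the 33.8% that were lower. Of 8 listed genes of the RAB membrane cycle, 4 rose and 2 fell, with a median log2 fold change of 0.30, where the median of all genes was 0.00. PRAF2 (0.97) and RABAC1 (1.32), both of the prenylated RAB acceptor family, rose, and CHM, the escort protein that presents RABs for prenylation, fell (-1.68). Of 50 listed GEF genes, 11 rose and 27 fell, with a median of -0.35. They included SH3BP5 (-1.69), a GEF for RAB11, the TRAPP subunits TRAPPC10 (-2.58) and TRAPPC1 (1.17), and GAPVD1 (-1.03), a GEF for RAB5. Of 38 listed GAP genes, 8 rose and 25 fell, with a median of -0.43. TBC1D14 (-2.33), TBC1D4 (-1.52), which acts on RAB10, and RABGAP1 (-1.16) fell, and TBC1D10B (0.81) rose. Of 46 listed effector genes, 6 rose and 25 fell, with a median of -0.61. The RAB5 effectors EEA1 (-1.78) and RABEP1 (-1.27), the Golgi tether GCC2 (-1.69) and ACAP2 (-1.40), which binds RAB35, were among those that fell. The median canonical transcript was 2093 bases in the cycle list, 4768.5 in the GEF list, 4793.5 in the GAP list and 4776 in the effector list, against 3103 over all matched genes, and the part of length in these counts was not tested. In siIGFRIL no gene of these 4 lists passed in limma, where 0.277% of all genes were higher and 0.191% lower. An unadjusted p under 0.05 was reached by 15 of their 142 listed genes, where 9.91% of all genes reached it.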

How the data were processed

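mRNA libraries of HepG2 cells were read from 1 table of 15164 genes in 9 columns, each tied to its sample by name. The columns of the IGFRIL knockdown were tied through the number of the array probe by which the study first named IGFRIL. The submitters' processing notes name FastQC, Trim Galore 0.6.7, Bowtie2 2.2.5, RSEM 1.2.8 and GRCh38, while how the final table was made, and with which strand setting, is stated nowhere in these sources. Values as deposited are on the log2 scale, a count plus 1, to 2 decimals and with no scaling between libraries, as judged from the values, which return counts within 0.0206 of whole numbers below 10. They were therefore not tested with a count model.

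Counts were returned from the log2 values, scaled by TMM (trims of 0.3 and 0.05), set to log2(count + 1) and fitted over all 9 libraries with limma 3.58.1 (trend and robust, statmod 1.5.0, R 4.3.3). Calls needed a fold change over 1.2 and a p under 0.05 after Benjamini-Hochberg adjustment over 15164 genes, with no filter on low values. Log2 ratios of all 1134 letter pairs were fitted in the same way, with the trend on the lower level of the pair. For 13873 genes (91.5%) matched to GENCODE release 44, lowess trends (span 0.4) on canonical transcript length and GC content were removed in 1 alternative. The scripts were tested on simulated data. Python 3.11.15, numpy 2.4.6, pandas 2.3.3, matplotlib 3.10.9 and Biopython 1.88 were used.

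The RAB genes, role groups and pathway lists were chosen with earlier results of these data known. Genes named by rule were all paralogs of a shared RAB number, the 10 largest rises and 10 largest falls in siPTBP1, the 4 smallest p in siIGFRIL, the 5 highest and 5 lowest levels, and the 4 smallest p of each pathway list, of which 1 gene is not reported here. Other RAB genes were named to account for the set, and those, ISY1-RAB43, BAG2 and the markers were named after their values were seen. Alternatives changed scaling, filter, pseudocount (0.1), moderation, libraries fitted, replicate block, length and GC trends, thresholds and each library left out.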

Additional observations from a re-analysis of the deposited data

How the results depend on the processing

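With 3 libraries per group, p-values rest on few values, and RAB41, RAB3B and RAB6B, under 1 CPM, allow no firm statement. No scaling gave 9 RAB genes higher and 21 lower in siPTBP1, where 23.5% and 43.1% of all genes were, and a median RAB log2 fold change of -0.187. Total count scaling gave 11 higher and 16 lower, where 27.8% and 38.3% of all genes were, and a median of -0.0700. Over 22 alternatives the siPTBP1 call was lost in 3 for RAB2B and RAB9A and in 5 for RAB8A and RAB40B, among others. A fold threshold of 1.5 gave 9 higher and 8 lower against siCtrl, and 9 higher and 9 lower against siIGFRIL. With trends on transcript length and GC content removed, 10 were lower and 7 pairs changed ratio, each count equal with the replicate block added. That alternative, with and without the block, also turned RAB5C (-0.031), RAB8B (0.11), RAB13 (-0.25), RAB14 (0.038), RAB17 (-0.34), RAB18 (0.26), RAB21 (0.84), RAB24 (-0.15), RAB27A (0.089), RAB30 (0.57) and the pairs RAB1A/RAB1B (0.041), RAB3A/RAB3B (-0.46) and RAB11A/RAB11B (0.64), and the cause was not tested. Replicate numbers did not pair the libraries, since same-numbered libraries correlated between -0.04 and 0.04 in their deviations from the group means, and with the replicate block 15 were higher, 16 lower, 11 pairs changed and none was called in siIGFRIL. Leaving out each library in turn gave 14 to 16 higher and 15 to 17 lower in siPTBP1, 10 to 12 pairs, and none in siIGFRIL. Against siIGFRIL it gave 14 to 17 higher and 15 lower. Shares of all genes were not counted with a library left out or at the fold threshold of 1.5. Restriction to RAB genes with at most 10% shared exon bases or at a mean of at least 1 CPM was chosen after seeing the data, and the latter gave 15 higher and 15 lower. Leaving genes unfiltered was already the setting used, and a count model was not run because the values are log2.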
